A study of Homo sapiens with 9 samples.

Results

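Full-length klotho was compared with an empty vector in HCT 116, an established human colorectal cancer cell line obtained from a cell repository. The comparison uses 6 of the 9 arrays of the series, the 3 titled mouse KL-FL against the 3 titled control vector, and the titles alone chose them. KL-FL is a plasmid carrying mouse full-length klotho, and the control is the plasmid pcDNA3 without an insert. The other 3 arrays are of cells given KL1, a plasmid carrying 1 subdomain of the same mouse protein. They enter here through the shared estimate of spread and where KL-FL is set beside KL1. Every group is the same line after a transient transfection, with total RNA taken 24 h later and 100 ng of it labelled for a whole-transcript human array. Transfection used JetPEI in some cases and polyethylenimine in others, and no array is tied to either reagent in the labels. The share of cells that took up a plasmid is not given either. Nothing says that replicates 1, 2 and 3 were separate cultures, so p-values here measure only array-to-array spread, which could be technical. In RNA of a whole culture, fewer cells expressing a gene and less RNA per cell cannot be told apart.

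Klotho is a membrane glycoprotein best known as the co-receptor through which FGF23 acts on the kidney, and it is folded and glycosylated in the endoplasmic reticulum (ER). Cells watch the folding load of the ER with the sensors PERK, IRE1 and ATF6, which set off the unfolded protein response. PERK leads through ATF4 to the transcription factor CHOP, encoded by DDIT3, while ATF6 and the IRE1 product XBP1 switch on chaperones and degradation factors through short promoter elements. The series title names this response, and the genes below are ordered by their place in it.

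The values are log2 expression levels of 17958 genes, 1 probe set for each, from 1.79 to 12.4 over the whole table. Array medians over genes lay between 5.38 and 5.42. KL-FL replicate 3 stood apart from the rest. Its median correlation with the other arrays was 0.997, while that of the other 8 lay between 0.9979 and 0.9989. Its values deviated from the KL-FL mean with an SD over genes of 0.0936, against 0.0749 for KL-FL replicate 2, 0.0533 for KL-FL replicate 1 and 0.0514 to 0.0557 for the controls. Gene lists are therefore given with and without it, as are genes whose value it moved by over 1.5 times. Of 22 epithelial markers 10 lay above the median gene, and those shared by most epithelia were high in the controls, with mean log2 levels of 10.74 for KRT8, 10.09 for KRT18 and 9.77 for EPCAM. Markers of a differentiated colon cell were low, at 3.78 for VIL1 and 2.75 for CDH17. Of 17 leukocyte markers 1 lay above the median gene, and of 16 fibroblast and endothelial markers 2 did. The lists' median differences between KL-FL and control were -0.015 over the epithelial markers, 0.0088 over the leukocyte and 0.021 over the fibroblast and endothelial ones. Leaving out KL-FL replicate 3 gave -0.0094, 0.012 and 0.031.

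The probe set for KL gave low values. KL, probe set 7968556, is designed on the human gene while the plasmid carries the mouse sequence. Its log2 level was 3.05, 3.06 and 3.03 on the control arrays and 3.22, 3.21 and 3.13 on the KL-FL arrays. The KL-FL arrays all lay above the controls, by a mean of 0.14 (SE 0.040), and the limma test with Benjamini-Hochberg adjustment over all genes was not passed (adjusted p = 0.637). KL1 differed from the same controls by 0.15, and KL-FL minus KL1 was -0.0059. The reading bears on the labels only as far as these human probes detect mouse RNA, which was not tested.

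DDIT3 was the only gene called between full-length klotho and control, and the call depended on which arrays were used. Of 17958 genes tested with limma, 1 passed at an adjusted p under 0.05, which is 0.00557% of them, and it was higher in KL-FL. No gene passed in the lower direction, 0 of 17958, and 1286 genes (7.16%) had an unadjusted p under 0.05, of which 877 (4.88%) were higher and 409 (2.28%) lower. The 3 KL-FL arrays did not overlap with the 3 controls for 1864 genes, 10.4% of all, with 1281 (7.13%) higher and 583 (3.25%) lower in KL-FL. Differences were small for nearly every gene. A log2 difference of at least 0.5 was seen for 2 genes in the higher direction (0.0111%) and 14 in the lower (0.078%), and of at least 0.25 for 66 (0.368%) and 95 (0.529%). The median difference over all genes was 0.0099, and 57.3% of genes had a higher mean in KL-FL, or 52.0% once each array was centred on its median. Without KL-FL replicate 3 the median was 0.018 and 64.1% of genes had a higher mean.

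**Figure D1:**
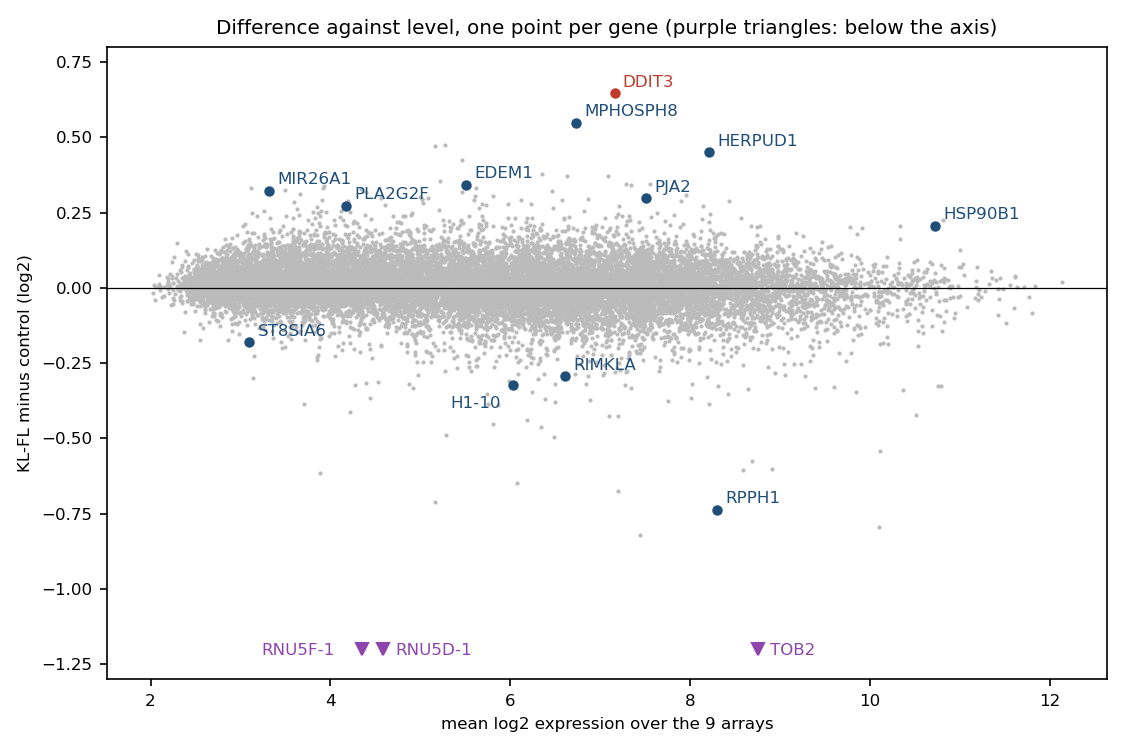
The log2 difference between KL-FL and control (vertical axis) against the mean log2 expression over the 9 arrays (horizontal axis), with 1 point per gene, the called gene in red, other named genes in blue and 3 genes below the axis as purple triangles. DDIT3 is the highest point at 0.65, and TOB2, at -2.43, lies below the axis.

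DDIT3 (probe set 7964460) encodes CHOP, a transcription factor that accumulates under lasting ER stress and turns on genes of cell death and renewed protein synthesis. Its promoter is shown because this was the called gene. The 250 bases before the start site, from the RefSeq promoter table on GRCh38.p14, lie at chr12:57520515-57520764 on the minus strand. They are written 5′ to 3′ along the gene, with CCAAT on either strand in capitals.
DDIT3: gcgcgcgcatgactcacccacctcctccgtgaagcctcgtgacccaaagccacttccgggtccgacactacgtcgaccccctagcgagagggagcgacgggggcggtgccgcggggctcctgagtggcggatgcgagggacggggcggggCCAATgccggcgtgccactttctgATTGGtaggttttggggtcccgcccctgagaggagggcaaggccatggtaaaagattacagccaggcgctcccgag

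The log2 level of DDIT3 was 6.67, 6.66 and 6.72 on the control arrays and 7.27, 7.48 and 7.23 on the KL-FL arrays. Every KL-FL array lay above every control, and KL-FL replicate 2 was the highest of them. The means were 6.68 ± 0.034 (SD, n = 3) and 7.33 ± 0.13 (SD, n = 3), a difference of 0.65 (SE 0.059, 95% interval 0.51 to 0.78), or 1.56-fold. In limma with Benjamini-Hochberg adjustment over all genes the adjusted p was 0.0348. Without KL-FL replicate 3 the difference was 0.69 and the adjusted p 0.0423. The size held between 0.57 and 0.69 whichever of the 9 arrays was left out, but the call did not. It was lost in 7 of those 9 fits, namely those leaving out any 1 control, any 1 KL1 array or KL-FL replicate 1, with limma adjusted p from 0.0744 to 0.435. A fit of only the 6 arrays compared also lost it (limma adjusted p = 0.472), as did a fit that blocked on replicate number (limma adjusted p = 0.226).

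The KL1 arrays gave 7.45, 7.47 and 7.48 for DDIT3, which is 0.78 above the controls (adjusted p = 0.00687 in limma). That call was lost with the replicate number as a block (adjusted p = 0.0611 in limma), and in the 6 fits that left out a control or a KL1 array (0.0688 to 0.108). The same control arrays serve both comparisons, which are therefore not independent. Set against each other, KL-FL lay 0.14 below KL1 (95% interval -0.27 to -0.0034), and that difference did not pass over all genes (adjusted p = 0.855 in limma). No gene separated the 2 klotho forms at an adjusted p under 0.05 in limma, 0 of 17958 (0.0%), with 906 at an unadjusted p under 0.05.

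The elements through which ATF6 and XBP1 act were searched in the 250 bases before each start site in 35116 windows of the RefSeq promoter table. The ER stress response element, ERSE, was taken as CCAAT, then 9 letters of any kind, then CCACG. ERSE-II was taken as ATTGG, 1 letter of any kind and CCACG, and both strands were searched. Each holds the common CCAAT box on 1 strand or the other, so the motifs overlap. ERSE was in 0.07404% of windows and ERSE-II in 0.05126%, whereas CCAAT alone was in 32.01%. DDIT3 has neither element spelled in full. Its window holds 2 stretches that differ from ERSE in 1 of its 10 spelled letters. At least 1 such stretch is in 1.287% of windows. With positions counted from 1 at the first letter of ERSE, these are G19T, from 100 to 82 bases before the start site, and C15G on the other strand, from 90 to 72 bases before it. The windows of DNAJC3 and SEL1L also hold a stretch that differs from ERSE in 1 spelled letter. Where a gene has several windows, the positions and sequences given are from the first listed.

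The promoters of the best-known ER stress genes are shown because they hold the elements in full, written as above with ERSE or ERSE-II in capitals. HSPA5 lies at chr9:125241344-125241593 on the minus strand, with ERSE from 66 to 48 bases before the start site. HSP90B1 lies at chr12:103930160-103930409 on the plus strand, with ERSE in each orientation. HERPUD1 lies at chr16:56931892-56932141 on the plus strand, with ERSE-II from 117 to 107 bases before the start site.
HSPA5: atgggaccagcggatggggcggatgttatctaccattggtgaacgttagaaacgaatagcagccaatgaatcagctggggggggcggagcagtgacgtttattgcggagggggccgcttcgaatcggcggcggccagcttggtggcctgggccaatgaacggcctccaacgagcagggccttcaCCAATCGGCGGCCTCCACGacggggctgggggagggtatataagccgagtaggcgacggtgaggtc
HSP90B1: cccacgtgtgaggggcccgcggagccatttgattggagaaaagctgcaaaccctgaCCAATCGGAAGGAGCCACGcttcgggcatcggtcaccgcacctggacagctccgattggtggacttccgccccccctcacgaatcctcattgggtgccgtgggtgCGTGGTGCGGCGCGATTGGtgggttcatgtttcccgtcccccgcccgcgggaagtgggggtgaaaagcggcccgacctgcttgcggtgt
HERPUD1: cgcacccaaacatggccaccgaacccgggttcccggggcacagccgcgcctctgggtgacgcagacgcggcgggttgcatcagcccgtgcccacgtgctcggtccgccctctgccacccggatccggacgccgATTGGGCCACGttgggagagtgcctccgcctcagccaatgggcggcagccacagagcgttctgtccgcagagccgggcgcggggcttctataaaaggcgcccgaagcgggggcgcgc

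HERPUD1 (probe set 7995895), a membrane protein that recruits the ubiquitin ligase of ER-associated degradation, had the next largest difference among the stress genes. Its log2 level was 7.90, 7.87 and 7.92 in control and 8.41, 8.45 and 8.18 with KL-FL. All KL-FL arrays lay above the controls, with replicate 3 the lowest of the 3. The mean difference was 0.45 (SE 0.073, 95% interval 0.29 to 0.62), or 1.37-fold, and it was 0.54 without KL-FL replicate 3. It did not pass over all genes in limma (adjusted p = 0.408, and 0.0664 without that array). KL1 differed from the same controls by 0.50 in HERPUD1, and the 95% interval for KL-FL minus KL1 was -0.21 to 0.12.

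HSPA5 (probe set 8164165) encodes BiP, the HSP70 chaperone of the ER that also holds the stress sensors inactive. It was among the most abundant transcripts read, with log2 levels of 10.64, 10.67 and 10.61 in control and 10.94, 10.90 and 10.75 with KL-FL. The groups did not overlap and differed by 0.23 (SE 0.059), or 1.17-fold, with KL-FL replicate 3 again nearest to the controls. HSP90B1 (probe set 7958130), the HSP90 chaperone of the ER known as GRP94, read 10.59, 10.59 and 10.56 in control and 10.77, 10.78 and 10.81 with KL-FL. Here KL-FL replicate 3 was the highest of its group, and the difference was 0.21 (SE 0.033), or 1.15-fold. Neither gene passed over all genes in limma (adjusted p = 0.583 and 0.408). KL1 differed from the same controls by 0.21 in HSP90B1 and 0.28 in HSPA5, and the 95% intervals for KL-FL minus KL1 were -0.074 to 0.076 and -0.19 to 0.075.

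**Figure D2:**
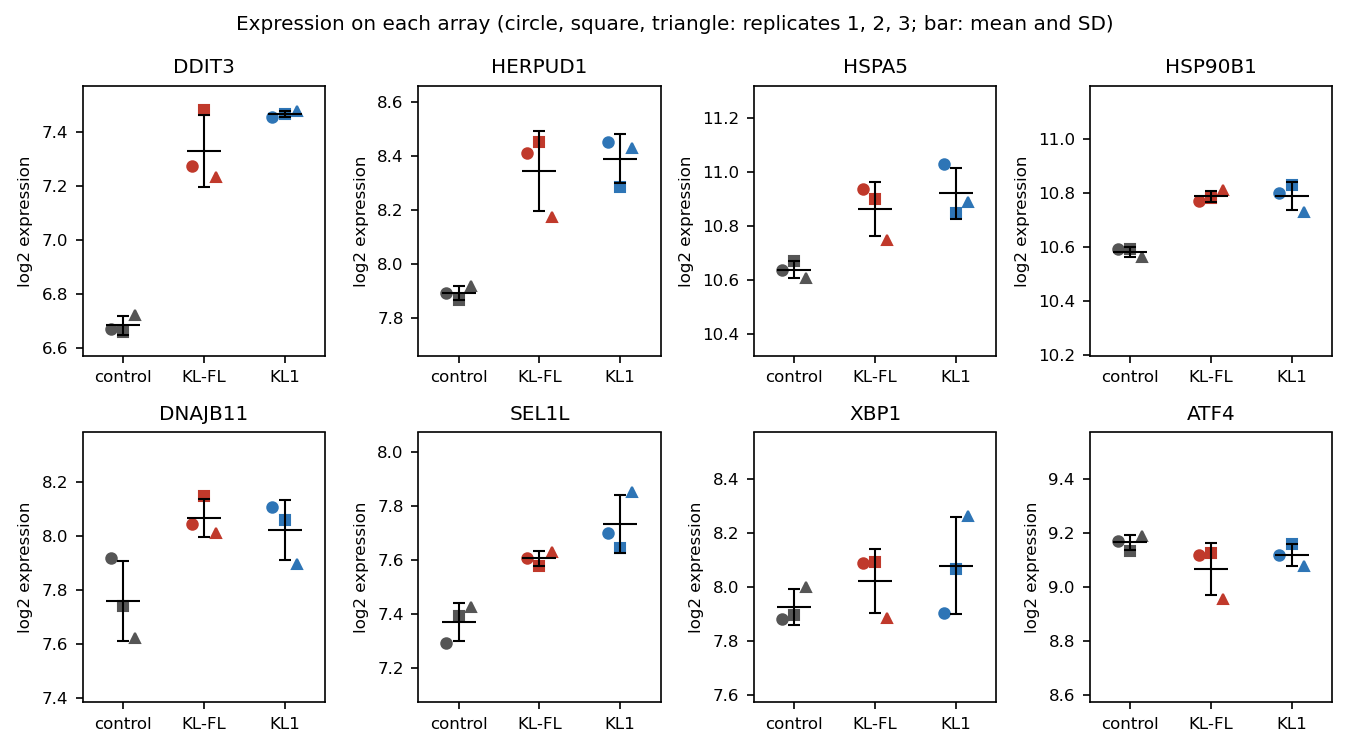
Log2 expression (vertical axis, each panel spanning 1 log2 unit) of 8 unfolded protein response genes on each array of the control, KL-FL and KL1 groups, with circles, squares and triangles for replicates 1, 2 and 3 and bars for the mean and SD. DDIT3, HERPUD1, HSPA5, HSP90B1, DNAJB11 and SEL1L are higher on every KL-FL array than on any control, XBP1 overlaps, and ATF4 is lower.

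Most genes of the ER chaperone list had a higher mean with KL-FL, though none of its 21 measured members passed the test. The list holds HSP70 and HSP90 chaperones, J-proteins and exchange factors. It also holds genes outside these classes, such as PPIB, members of the FKBP family, SERPINH1, CNPY3, CRELD2 and MANF. The 3 lower members, CNPY3, SERPINH1 and FKBP7, are of this second kind. Of the 21, 18 were higher and 3 lower, with a median log2 difference of 0.11 (0.10 without KL-FL replicate 3) beside 0.0099 over all genes. In 8 of them the KL-FL arrays all lay above the controls, which 7.13% of all genes did. They all lay below in 0, beside 3.25% of all genes. KL1 against the same controls gave a median of 0.067 over the list, with 16 higher. The list was assembled with earlier results of these data known, so its counts are a description. DNAJB11, a J-protein that passes unfolded chains to BiP, read 7.92, 7.74 and 7.62 in control and 8.05, 8.15 and 8.01 with KL-FL, a difference of 0.31 (SE 0.081). DNAJC3, a J-protein also described as an inhibitor of PERK, read 6.64, 6.76 and 6.63 in control and 7.04, 7.03 and 6.86 with KL-FL, a difference of 0.30 (SE 0.074). In both genes the KL-FL arrays all lay above the controls, by a narrow margin. MANF (0.12), HYOU1 (0.12), SEC63 (0.12) and CRELD2 (0.086) also did not overlap. DNAJB9, a J-protein known as a sensitive IRE1 target, differed by 0.21 with a large error (SE 0.14), and its control replicate 2 lay above KL-FL replicate 3. The lowest members were the collagen chaperone SERPINH1 (-0.081, or 0.037 without KL-FL replicate 3) and the Toll-like receptor chaperone CNPY3 (-0.17).

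Genes with ERSE or ERSE-II before their start site numbered 33 among those measured, and 27 of them had a higher mean with KL-FL. Their median log2 difference was 0.049, and 0.070 without KL-FL replicate 3, beside 0.0098 over the 13864 measured genes with a promoter window. In 6 of the 33 (18.2%) the KL-FL arrays all lay above the controls, against 7.13% of all 17958 genes. They all lay below in 0, beside 3.25% of all genes. The 6 included TRIM5, an antiviral restriction factor, which differed by 0.18 (SE 0.030). The others were HSPA5, HSP90B1, HERPUD1, HYOU1 and CRELD2. These are members of the chaperone or degradation list, so this count repeats genes counted in those lists. None of the 33 passed over all genes in limma. The other end of the group was RUVBL2, an ATPase of chromatin remodelling, at -0.20 (SE 0.12), or -0.036 without KL-FL replicate 3. Other motifs stood nearer to all genes. The median was 0.020 for the 126 genes with the XBP1 element TGACGTGG, 0.012 for 115 with the ATF4 element TTGCATCA, 0.0099 for 396 with the CREB element TGACGTCA and 0.010 for 5618 with CCAAT. Without KL-FL replicate 3 these medians were 0.027, 0.022, 0.023 and 0.020, beside 0.018 over all genes. The 273 measured genes with a stretch that differs from ERSE in 1 spelled letter had a median of 0.015. Taken apart, the ERSE and ERSE-II genes had medians of 0.050 and 0.046 with KL-FL. With KL1 against the same controls these were 0.085 and 0.012.

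The short windows below show how the element varies among genes that hold it. Capitals mark ERSE for CRELD2, XBP1 and CALR, and ERSE-II for SDF2L1 and HYOU1, whose window holds it in 2 places. They lie at chr22:49918539-49918587 (plus strand), chr22:28800588-28800636 (minus), chr19:12938369-12938417 (plus), chr22:21642099-21642139 (plus), chr11:119057365-119057405 (minus) and chr11:119057259-119057299 (minus), in the order shown, on GRCh38.p14.
CRELD2: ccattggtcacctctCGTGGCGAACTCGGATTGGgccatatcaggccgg
XBP1: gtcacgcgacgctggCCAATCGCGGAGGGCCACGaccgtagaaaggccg
CALR: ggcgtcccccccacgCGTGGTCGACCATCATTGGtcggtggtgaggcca
SDF2L1: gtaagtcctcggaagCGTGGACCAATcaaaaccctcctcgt
HYOU1, first place: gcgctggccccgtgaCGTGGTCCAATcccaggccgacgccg
HYOU1, other place: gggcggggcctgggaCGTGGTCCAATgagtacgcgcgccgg
These genes share the element and spanned a range of differences. CRELD2 differed by 0.086 (SE 0.039), XBP1 by 0.096 (SE 0.091) and the glycoprotein chaperone CALR by 0.080 (SE 0.068). SDF2L1, a partner of J-proteins, differed by 0.19 (SE 0.073) and HYOU1, an exchange factor of BiP, by 0.12 (SE 0.043). XBP1, CALR and SDF2L1 overlapped between the groups, with KL-FL replicate 3 inside the control range in XBP1, replicates 1 and 3 in CALR and replicate 2 in SDF2L1.

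**Figure D3:**
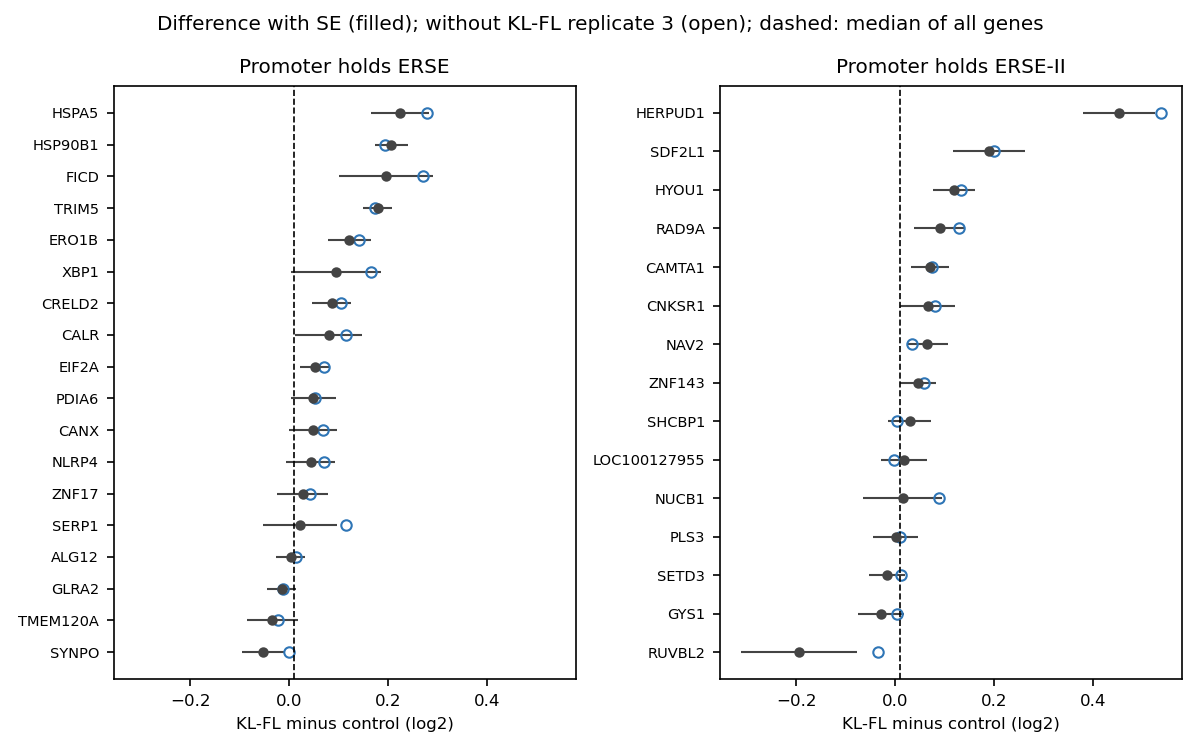
Log2 difference between KL-FL and control (horizontal axis) of the 18 genes with ERSE and the 15 with ERSE-II within 250 bases before the start site, as filled points with the SE, with open points for the value without KL-FL replicate 3 and a dashed line at the median of all genes. HERPUD1 has the largest difference at 0.45 and RUVBL2 the lowest at -0.20.

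The machinery of ER-associated degradation, which draws misfolded proteins back to the cytosol for destruction, gave values on both sides of 0. Of 30 genes measured, 19 were higher and 11 lower, with a median of 0.052 (0.045 with KL-FL replicate 3 left out, and 0.0051 with KL-FL replicate 2 left out), and 0 passed the test. Groups did not overlap for 7 members in the higher direction and 2 in the lower, beside 7.13% and 3.25% of all genes. KL1 against the same controls gave a median of 0.041 over this list, with 19 higher. EDEM1, a lectin that extracts misfolded glycoproteins, read 5.28, 5.38 and 5.36 in control and 5.62, 5.64 and 5.78 with KL-FL, a difference of 0.34 (SE 0.075). Its other probe set, dimmer at about 4.4, differed by 0.060, so the gene's probe sets do not give 1 size. SEL1L, the scaffold of the HRD1 ubiquitin ligase, read 7.29, 7.39 and 7.42 in control and 7.61, 7.58 and 7.63 with KL-FL, a difference of 0.24 (SE 0.056). The 3 KL-FL arrays of SEL1L were close to each other and all above the controls. KL1 differed from control by 0.36 in SEL1L. SYVN1, which encodes HRD1 itself, differed by 0.13, and the retrotranslocation factors DERL2 and SELENOK by 0.18 and 0.13. EDEM3, which trims mannose from misfolded glycoproteins, differed by 0.15. The members lower on every KL-FL array were DERL1 (-0.075) and AUP1 (-0.095), of which DERL1 differed by -0.021 without KL-FL replicate 3.

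**Figure D4:**
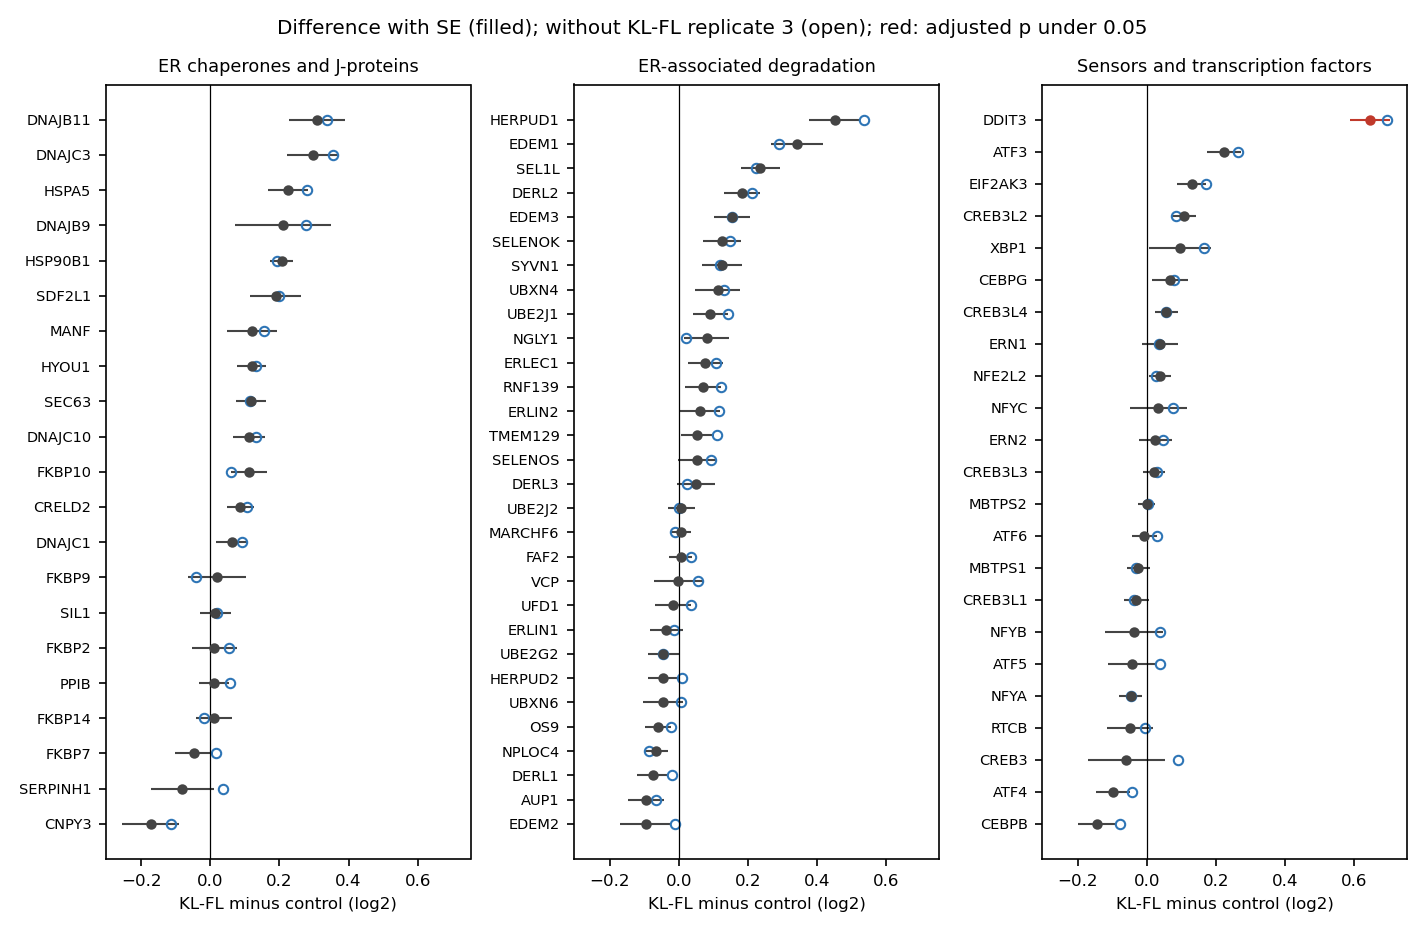
Log2 difference between KL-FL and control (horizontal axis) for each measured ER chaperone, degradation gene and sensor or transcription factor of the response, as filled points with the SE, red where the adjusted p was under 0.05, and open points for the value without KL-FL replicate 3. DDIT3 is the red point at 0.65, and 18 of the 21 genes of the chaperone list lie above 0.

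The enzymes that form disulfide bonds in the ER did not stand apart as the chaperones did, with 14 of 23 protein disulfide isomerases and ER oxidases higher and a median of 0.014 (0.036 without KL-FL replicate 3). None passed. ERP44, which retains oxidases in the early secretory pathway, read 7.44, 7.41 and 7.46 in control and 7.60, 7.63 and 7.52 with KL-FL, all above control, by 0.15 (SE 0.035). PDIA4 differed by 0.16 (SE 0.065), with KL-FL replicate 3 inside the control range. P4HB and PDIA3, the abundant isomerases, differed by 0.014 and 0.045, or 0.036 and 0.11 without KL-FL replicate 3. QSOX1, a sulfhydryl oxidase of the Golgi, went the other way, at 7.19, 7.51 and 7.30 in control and 7.07, 7.14 and 7.04 with KL-FL, a difference of -0.25 (SE 0.070). The selenoprotein SELENOM (-0.20) was likewise below control on every KL-FL array, and stood at -0.095 without replicate 3.

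Entry into the ER, glycosylation and export were described by 3 further lists. Of 23 translocation and signal peptide genes, 19 (82.6%) were higher, beside 57.3% of all genes, with a median of 0.026. With KL-FL replicate 3 left out there were again 19, and the median was 0.066. The share of higher genes was near that of the fibroblast and endothelial markers, few of which lay above the median gene. Of those markers 13 of 16 (81.25%) were higher, and 14 without KL-FL replicate 3. SSR1, a subunit of the translocon-associated complex, read 9.20, 9.22 and 9.23 in control and 9.32, 9.35 and 9.35 with KL-FL, a difference of 0.12 (SE 0.036), while its partner subunit SSR2 differed by -0.18 (-0.089 without KL-FL replicate 3). Of 31 N-glycan genes 18 were higher, and the median was 0.0073, or 0.042 with 24 higher without KL-FL replicate 3. GFPT1, the rate-limiting enzyme of the hexosamine pathway and a described XBP1 target, read 9.14, 9.05 and 9.07 in control and 9.26, 9.27 and 9.27 with KL-FL. It differed by 0.18 (SE 0.033), its 3 KL-FL arrays close to each other and above every control. PRKCSH, a subunit of glucosidase II, differed by -0.17 (SE 0.064), or -0.11 without KL-FL replicate 3, with overlap. Of 32 ER-to-Golgi traffic genes, 20 were higher, with a median of 0.030. It was 0.042 with KL-FL replicate 3 left out and -0.0050 with KL-FL replicate 2 left out. SEC24D and SEC24A, cargo adaptors of the vesicle coat, differed by 0.16 and 0.13. In each of these lists 0 genes passed the test.

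Among sensors and transcription factors of the response, DDIT3 stood alone in passing the test. Of 23 measured, 12 were higher, 1 passed the test (DDIT3), and the median was 0.020, or 0.039 without KL-FL replicate 3. ATF3, a stress-induced repressor and a known ATF4 and CHOP target, read 5.32, 5.22 and 5.27 in control and 5.52, 5.55 and 5.41 with KL-FL. It lay above control on all 3 arrays, by 0.22 (SE 0.051, adjusted p = 0.550 in limma). KL1 differed from control by 0.32 in ATF3. The sensor genes differed by 0.13 for EIF2AK3, which encodes PERK, by 0.038 for ERN1, which encodes IRE1, and by -0.0073 (0.029 without KL-FL replicate 3) for ATF6. EIF2AK3 read 6.51, 6.48 and 6.42 in control and 6.62, 6.66 and 6.52 with KL-FL, without overlap, while ERN1 and ATF6 overlapped. CREB3L2, a membrane-bound factor of secretory cells, differed by 0.11.

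ATF4, the factor upstream of DDIT3, had a lower mean with KL-FL, at 9.17, 9.13 and 9.19 in control and 9.12, 9.13 and 8.96 with KL-FL. The highest KL-FL array was only just below the lowest control. The difference was -0.098 (SE 0.049, 95% interval -0.21 to 0.013), and it was -0.042 without KL-FL replicate 3, the lowest array. Its other probe set differed by -0.11 and overlapped between groups, with KL-FL replicate 2 above control replicate 2. ATF4 is known to be controlled mainly at translation, and protein was not measured. CEBPB, a dimer partner of CHOP, differed by -0.14, or -0.078 without KL-FL replicate 3. XBP1 overlapped between groups at 7.88, 7.90 and 8.0 in control and 8.09, 8.09 and 7.88 with KL-FL, a difference of 0.096 (SE 0.091), and 0.16 without replicate 3. These probe sets give 1 value per gene and do not separate spliced from unspliced XBP1.

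Among 23 targets of CHOP and of the late integrated stress response, 15 were higher and 0 passed, with a median of 0.028, or 0.035 with 17 higher without KL-FL replicate 3. SESN2, a stress-induced inhibitor of mTORC1, differed by 0.19 (SE 0.067), with KL-FL replicate 3 inside the control range. XPOT, which exports tRNA from the nucleus, read 8.29, 8.24 and 8.26 in control and 8.45, 8.48 and 8.39 with KL-FL, a difference of 0.18 (SE 0.040) without overlap. TRIB3, the pseudokinase that feeds back on ATF4, differed by 0.097 (SE 0.081) and 0.20 without KL-FL replicate 3. Smaller differences were those of PPP1R15A, which encodes GADD34 and lets translation restart, at -0.00025 (0.060 without KL-FL replicate 3), and of the ER oxidase gene ERO1A, at -0.011 (-0.026). PMAIP1, a BCL2 family death gene, differed by 0.069 (SE 0.081), or 0.16 without that array, and TNFRSF10B, the death receptor DR5, by 0.071 with no overlap (SE 0.037).

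ATF4 targets of amino acid supply were mixed, with 15 of 23 higher, 0 passing and a median of 0.023. Without KL-FL replicate 3, 20 were higher and the median was 0.045. The cystine transporter SLC7A11 had the largest difference, 0.23 (SE 0.072), and its KL-FL replicate 2 lay below control replicate 1. ASNS and CHAC1 differed by 0.0060 (SE 0.027) and 0.028 (SE 0.11), with intervals that include 0 widely, and both signs turn in other settings. Without KL-FL replicate 3 they were 0.013 and 0.137. The ASNS value is -0.0011 when arrays are centred on their medians, and without control replicate 3 the values of ASNS and CHAC1 are -0.0021 and -0.013. The serine pathway enzymes SHMT2 (-0.22) and PHGDH (-0.20) lay on the other side, at -0.076 and -0.085 without KL-FL replicate 3. Of 19 cytosolic aminoacyl-tRNA synthetases 11 were higher, with a median of 0.013, and without KL-FL replicate 3 these were 18 and 0.050. LARS1, which charges leucine, differed by 0.14 (SE 0.039).

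**Figure D5:**
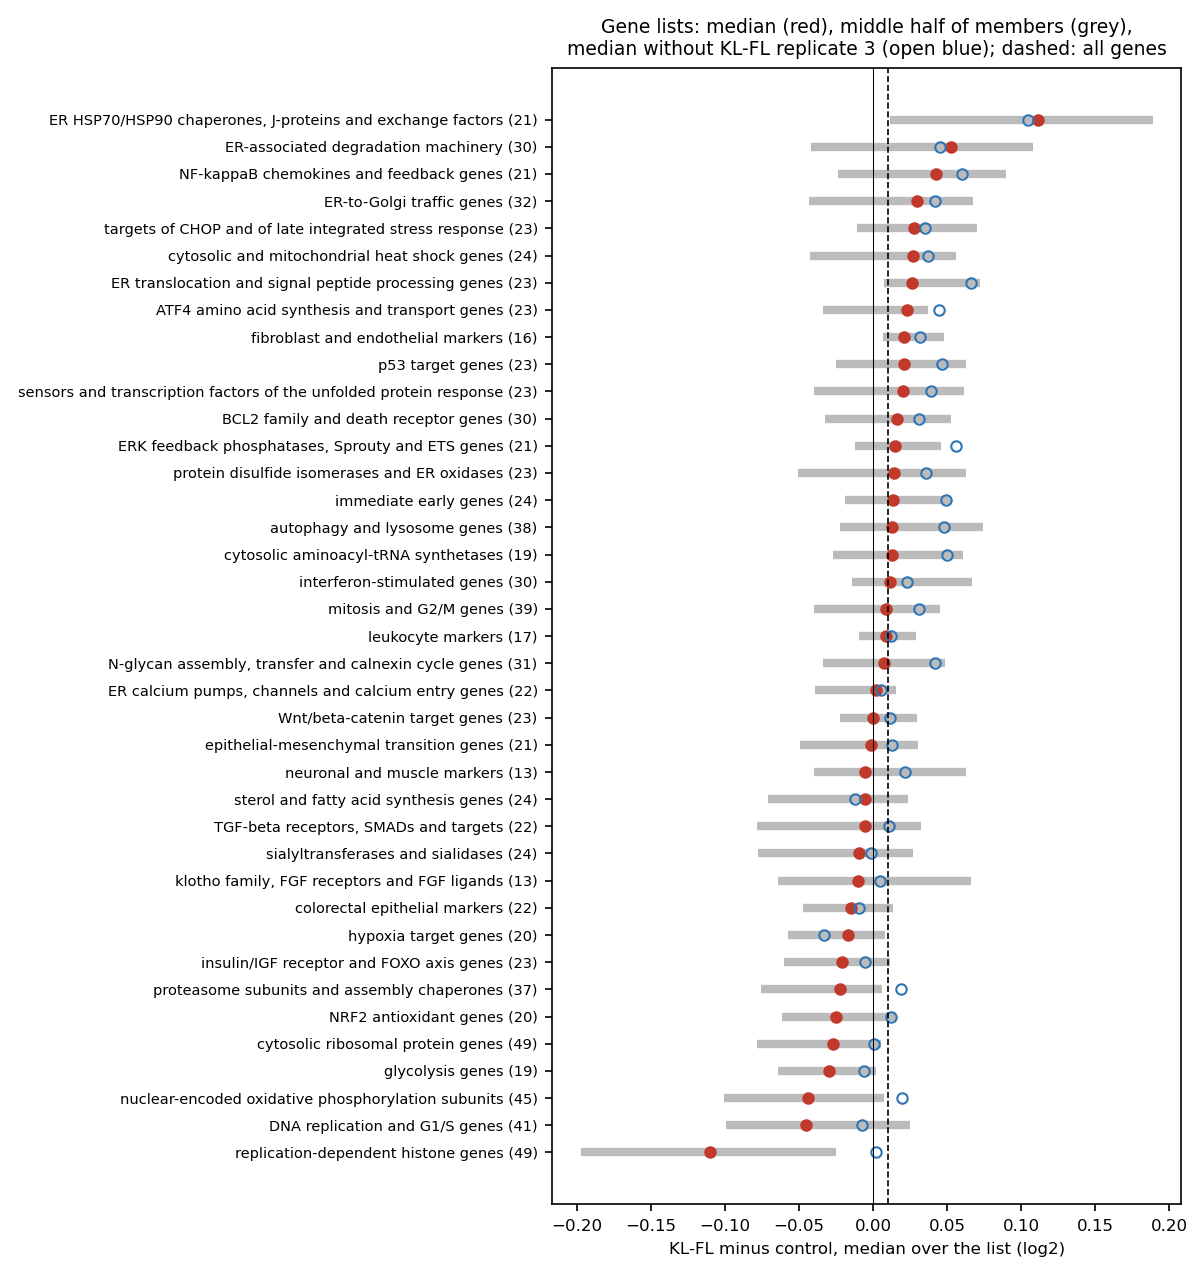
Median log2 difference between KL-FL and control (horizontal axis) of 39 gene lists with the number of measured members in brackets, as red points, with grey bars from the lower to the upper quartile of the members, open blue points for the median without KL-FL replicate 3 and a dashed line at the median of all genes. ER chaperones are at the top with 0.11 in all arrays and 0.10 without that array, and histones at the bottom with -0.11 and 0.0019.

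Klotho's own pathway showed small values on both sides. Of 13 genes of the klotho family, FGF receptors and FGF ligands, 6 were higher and 0 passed, with a median of -0.010, or 0.0044 with 7 higher without KL-FL replicate 3. KLB, which encodes beta-klotho, the co-receptor for FGF19 and FGF21, read 3.58, 3.57 and 3.66 in control and 3.47, 3.43 and 3.55 with KL-FL, a difference of -0.12 (SE 0.043) at the low end of the scale. FGFR4, a receptor that pairs with beta-klotho, was also below control on every KL-FL array, by -0.11 (SE 0.044), and FGFR1, which pairs with klotho, overlapped at 0.10 (SE 0.074), or 0.027 without KL-FL replicate 3. DUSP6, an ERK phosphatase that FGF signalling is known to induce, read 8.26, 8.21 and 8.24 in control and 8.08, 8.13 and 8.01 with KL-FL. It differed by -0.17 (SE 0.036, adjusted p = 0.550 in limma) without overlap, while SPRY4, another FGF-induced inhibitor, differed by 0.16 (SE 0.13) in the other direction. Of the 21 genes of this ERK feedback group 15 were higher, with a median of 0.015, and without KL-FL replicate 3 these were 18 and 0.056.

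Klotho has also been described as restraining insulin and IGF signalling, Wnt signalling and TGF-beta. Of 23 genes of the insulin/IGF and FOXO axis 8 were higher and 0 passed, with a median of -0.021 (-0.0053 without KL-FL replicate 3). The FOXO factors FOXO4 and FOXO1 differed by -0.23 (SE 0.066) and -0.14 (SE 0.056), and FOXO1 did not overlap. FOXO3 differed by 0.034, or 0.086 without that array. Wnt target genes had a median of -0.00027 with 11 of 23 higher, and TGF-beta receptors, SMADs and targets -0.0059 with 10 of 22 higher. Leaving out KL-FL replicate 3 gave 0.012 with 14 higher and 0.010 with 13 higher. TGFBR2, the type II receptor, read 7.65, 7.57 and 7.59 in control and 7.71, 7.67 and 7.84 with KL-FL, a difference of 0.14 (SE 0.045) without overlap, or 0.088 without that array.

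Of 30 BCL2 family and death receptor genes 19 were higher and 0 passed, with a median of 0.016. Without KL-FL replicate 3, 23 were higher and the median was 0.031. CASP8, the initiator caspase of death receptors, read 7.32, 7.19 and 7.06 in control and 7.41, 7.35 and 7.43 with KL-FL, a difference of 0.21 (SE 0.063). CASP9, the initiator of the mitochondrial route, read 5.73, 5.68 and 5.72 in control and 5.48, 5.49 and 5.63 with KL-FL, a difference of -0.18 (SE 0.043). Neither overlapped between groups and neither passed over all genes in limma (adjusted p = 0.669 and 0.578). KL1 differed from control by 0.0087 in CASP9, and KL-FL lay 0.19 below KL1 (95% interval -0.28 to -0.088, adjusted p = 0.855 in limma). Of 38 autophagy and lysosome genes 23 were higher, with a median of 0.013, and without KL-FL replicate 3 these were 33 and 0.048. All KL-FL arrays lay above the controls in 6 of them and below in 2, beside 7.13% and 3.25% of all genes. ATG12, a ubiquitin-like protein of the autophagosome, differed by 0.27 (SE 0.11), and its partner ATG5 by 0.096 (SE 0.036). Of 21 NF-kappaB genes 14 were higher, with a median of 0.043, and without that array these were 18 and 0.060. All KL-FL arrays lay above the controls in 5 of the 21 and below in 2. REL, a subunit of the factor, differed by 0.18 (SE 0.059), or 0.11 without it, and no gene of these lists passed the test.

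In several housekeeping lists the lower median with KL-FL rested on replicate 3. The 49 replication-dependent histone genes had a median of -0.11 with 6 higher, and 0.0019 with 26 higher without that array. Their median deviation from the control mean was -0.33 on KL-FL replicate 3, 0.044 on replicate 2 and -0.056 on replicate 1. Oxidative phosphorylation subunits (median -0.044, 14 of 45 higher) stood at 0.020 without it, cytosolic ribosomal proteins (-0.027, 14 of 49) at 0.00067 and proteasome genes (-0.023, 13 of 37) at 0.019. No gene of these lists passed the test. The 41 DNA replication and G1/S genes had a median of -0.045 with 28 lower, and -0.0076 without that array. In 9 of them all KL-FL arrays lay below the controls, beside 3.25% of all genes. In 1 they all lay above, beside 7.13% of all genes. PRIM1, a primase subunit, differed by -0.17 (-0.096 without replicate 3), RFC2, of the clamp loader, by -0.17 (-0.12), and CDC6, the helicase loader that was above control, by 0.14 (0.16). Hypoxia target genes had a median of -0.017, with 6 of 20 higher, or -0.033 with 5 higher without KL-FL replicate 3. Their median deviation from the control mean ran from -0.14 on control replicate 1 to 0.089 on control replicate 3, a range that holds all 3 KL-FL arrays.

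Outside these lists, several genes were among those with the smallest p-values or largest differences, and none passed in limma. PLA2G2F, a secreted phospholipase, read 3.99, 4.08 and 4.0 in control and 4.25, 4.30 and 4.35 with KL-FL, a difference of 0.27 (SE 0.036, adjusted p = 0.364). RIMKLA, a synthetase of N-acetylaspartylglutamate, read 6.71, 6.81 and 6.75 in control and 6.50, 6.42 and 6.47 with KL-FL, a difference of -0.29 (SE 0.042, adjusted p = 0.408). In both the groups were well apart, and KL-FL replicate 3 lay with the other KL-FL arrays. MPHOSPH8, a reader of repressive chromatin in the HUSH complex, had the largest difference in the higher direction after DDIT3, at 0.55 (SE 0.099), from 6.57, 6.45 and 6.33 in control to 7.02, 7.03 and 6.95 with KL-FL. KL1 differed from control by 0.30 in this gene, with KL1 replicate 2 inside the control range. PJA2, a ubiquitin ligase that degrades a regulatory subunit of protein kinase A, differed by 0.30 (SE 0.050), and ZNF235, a zinc-finger protein, by 0.42 (SE 0.10). CEP120, a centriole protein, differed by 0.20, VILL, a villin-like protein, by 0.18, and ODR4 by 0.19, all without overlap. KL1 differed from the same controls by 0.26 in PJA2, 0.081 in ZNF235, 0.10 in CEP120, 0.18 in VILL and 0.12 in ODR4.

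Lower on every KL-FL array were JOSD2, a deubiquitinase, H1-10, a linker histone, and ST8SIA6, a sialyltransferase. JOSD2 read 6.13, 6.17 and 6.09 in control and 5.94, 5.89 and 5.95 with KL-FL, a difference of -0.21 (SE 0.037). KL1 differed from control by -0.013, and KL-FL minus KL1 was -0.19 (95% interval -0.28 to -0.11, adjusted p = 0.855 in limma). H1-10 differed by -0.32 (SE 0.065), and -0.24 without KL-FL replicate 3. ST8SIA6, which adds sialic acid to other sialic acids, differed by -0.18 (SE 0.031) at a low level, 3.20 in the mean of the controls. The ubiquitin ligase genes MARCHF3 and RNFT2 differed by -0.22 and -0.20. ST8SIA6 and RNFT2 each repeat 1 value on all 3 KL1 arrays, 3.079 and 7.056. Those arrays enter the shared estimate of spread, and what the repeats do to it was not tested.

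One miRNA gene was among the 10 genes with the smallest p in the higher direction. MIR26A1 (probe set 8078663) read 3.10, 3.13 and 3.11 in control and 3.46, 3.53 and 3.32 with KL-FL. The groups did not overlap and differed by 0.32 (SE 0.053, adjusted p = 0.408 in limma), or 0.38 without KL-FL replicate 3 (adjusted p = 0.0709). KL1 differed from control by 0.29. The level is at the low end of the scale, and the array does not tell the mature miRNA from its precursor or host transcript. Its mature sequence is shown to identify it, from the RefSeq miRNA table on GRCh38.p14 at chr3:37969413-37969434 (plus strand), with the seed, bases 2 to 8, in capitals.
hsa-miR-26a-5p: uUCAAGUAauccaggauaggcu

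The most negative difference was that of TOB2, whose probe sets disagree. TOB2, an antiproliferative adaptor of mRNA deadenylation, read 9.71, 10.05 and 10.35 in control and 7.56, 7.92 and 7.35 with KL-FL on probe set 8113120. That is -2.43 (SE 0.54, adjusted p = 0.550 in limma), with KL1 arrays at 7.70, 10.13 and 7.98. Another probe set named TOB2 has identical values on every array. The one that the annotation pairs with the RefSeq transcript of TOB2 read 7.11, 7.07 and 6.99 in control and 7.11, 7.14 and 6.96 with KL-FL, a difference of 0.012. The annotation pairs the identical probe sets with a single cDNA record and not with that transcript, and whether they read TOB2 was not tested.

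Structural RNAs made up many of the other low values. Of 229 genes of small nucleolar, spliceosomal and similar RNAs, a list defined by their symbols after the values were seen, 84 were higher, with a median of -0.026 (-0.031 without KL-FL replicate 3) and 0 past the test. RPPH1, the RNA of ribonuclease P, read 8.58, 8.60 and 8.64 in control and 7.99, 8.51 and 7.11 with KL-FL, a difference of -0.74 (SE 0.28). KL-FL replicate 3 was far below and replicate 2 close to the controls, and without replicate 3 the difference was -0.36. SCARNA12 and SCARNA10, which guide modification of spliceosomal RNA, differed by -0.54 and -0.65, and by -0.31 and -0.43 without it. RNU5D-1 and RNU5F-1, which are spliceosomal RNA genes, had the largest differences of the list, -1.53 and -1.39 (-1.08 and -0.82 without KL-FL replicate 3), and overlapped between groups.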

How the data were processed

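Series text and labels gave the groups: control, KL-FL and KL1, 3 arrays each, mapped by title. The authors deposited log2 expression values of 33297 probe sets, with Partek 6.6 named in the submitters' processing notes. How background, normalization and probe summary were handled is not given in the sources used here. That the log base is 2 rests on the value range. Of the probe sets, 19181 named 1 gene in the platform annotation, 2055 several and 12061 none. Those naming 1 gene were kept, and where a gene had several (895 genes), its brightest by the 9-array mean was used. Values were used as deposited, without a detection call, and the number of arrays limits their precision. A model with 3 groups was fitted with limma 3.58.1 (lmFit, contrasts.fit, eBayes) in R 4.3.3 on all 9 arrays, with 6 residual degrees of freedom. Tests were two-sided, and p-values were adjusted by Benjamini-Hochberg over 17958 genes at a threshold of 0.05. The fit was tested on simulated data with independent normal noise, which held neither an outlying array nor the repeated values described below. Alternatives were other scalings, filters, probe set rules, array weights, moderation, the replicate block and each array left out. The members and lists were chosen with earlier results of these data known. Named genes are KL, 11 response markers, genes past the threshold, 10 higher and 10 lower genes by smallest p, the 6 largest differences in each direction at or above the median level without overlap, and the 3 smallest p of each response and secretory list (2 of other lists). Further genes were chosen after their values were seen. Promoters and miRNA sequences are from RefSeq tables on GRCh38.p14.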

Additional observations from a re-analysis of the deposited data

Results flagged for a closer look

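Probe sets without a gene name lie outside the comparison by gene, and the 2 largest differences without overlap in each direction are given here. Probe set 7896748 read 6.83, 7.09 and 7.62 in control and 9.27, 9.11 and 9.33 with KL-FL, a log2 difference of 2.057 (adjusted p = 0.378 over all probe sets in limma). Probe set 8165658 read 8.28, 8.48 and 8.79 in control and 10.12, 9.88 and 10.19 with KL-FL, a difference of 1.542 (adjusted p = 0.301). In the other direction, probe set 8108180 read 5.92, 6.51 and 6.77 in control and 3.46, 3.81 and 3.38 with KL-FL, a difference of -2.848 (adjusted p = 0.611). Probe set 8107204 read 6.36, 7.25 and 7.65 in control and 4.75, 5.06 and 4.70 with KL-FL, a difference of -2.254 (adjusted p = 0.603). In each, KL1 replicate 2 lay nearer to the controls than KL1 replicates 1 and 3 did, as it did for TOB2 on probe set 8113120. Of 12061 unnamed probe sets, 14 were higher and 7 lower by at least 1 without overlap, against 1 named gene. What these probe sets read was not tested.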

How the results depend on the processing

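The number of arrays limits every value. The count of genes called between KL-FL and control was 1 under median centring, quantile normalization, the filter on genes below the 50th percentile, the mean of probe sets and trended moderation. It was 0 with every probe set tested, with only the 6 arrays compared, with each gene's own variance and with the replicate block. It was 523 with array weights, of which 1 was also called with equal weights, and 3 (DDIT3, HERPUD1 and MIR26A1) with array weights without KL-FL replicate 3, a setting chosen after seeing the data. The weights ran from 0.2653 for KL-FL replicate 3 to 6.764 for KL-FL replicate 1. With each array left out the count ran from 0 to 1, and without KL1 replicate 2 the 1 gene was TOB2. Between KL-FL and KL1 the count of 0 became 1 with array weights (STARD9) and 1 with own variances (ABCA3), and stayed at 0 with each array left out. Same-numbered arrays of control and KL-FL had deviations correlated at 0.0974, -0.0004 and -0.0073. Those of control and KL1 were correlated at 0.1126, 0.3215 and 0.186, above 0.1 in each. With 3 arrays per group these correlations cannot show whether same-numbered arrays shared a batch. The block removes the DDIT3 call of KL-FL against control (limma adjusted p = 0.226). It also removes the DDIT3 call of KL1 against control (limma adjusted p = 0.0611). That call was also lost with every probe set tested (0.0519) and with own variances (0.239). These values for KL1 were added after seeing the data.

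Most genes named by the rule were picked for a small p or for groups that do not overlap. A gene without overlap keeps its sign whichever array is left out, so a count of reversals is no measure of stability. SERPINH1, ATF6 and PPP1R15A, outside the rule, changed sign without KL-FL replicate 3 and are not counted. Signs reversed in 5 of 2126 values of the genes named by the rule. These are ASNS at -0.0011 with centred arrays and -0.0021 without control replicate 3, CHAC1 at -0.013 without control replicate 3 and -0.072 without KL-FL replicate 1 (its range with each array left out was -0.072 to 0.137), and MXI1 at -0.0041 with array weights. The replicate spread set beside list medians includes KL-FL replicate 3, so lists that this array shifted could stay within it. Histone genes, at -0.11 and 0.0019 without that array, had a spread of 0.14. Oxidative phosphorylation subunits, at -0.044 and 0.020, had 0.090, and proteasome genes, at -0.023 and 0.019, had 0.065. None of these lists counts as moved. List medians moved by more than the replicate spread in 24 of 752 values, over 12 lists. With array weights these were 0.059 for translocation, 0.0094 for the klotho family and 0.030 for neuronal and muscle markers. Centring gave -0.0083 and quantile normalization -0.012 for epithelial-mesenchymal transition genes, and quantile normalization -0.032 for epithelial markers. Without dim genes ER calcium genes stood at -0.031. With each array left out the medians ran from 0.085 to 0.11 for ER chaperones, 0.0051 to 0.052 for degradation, 0.016 to 0.066 for translocation, -0.0050 to 0.042 for ER-to-Golgi traffic, -0.032 to 0.047 for p53 targets and -0.026 to 0.021 for the klotho family. They ran from -0.038 to 0.010 for TGF-beta, -0.0098 to 0.013 for epithelial-mesenchymal transition, -0.035 to 0.00018 for sialyltransferases and -0.013 to 0.038 for neuronal and muscle markers. The causes were not tested.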

Other observations

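The deposited values repeat exactly across arrays for many genes. Of 17958 genes, 12305 (68.5%) have the same value on at least 2 of the 9 arrays, and within the KL-FL group 2937 (16.4%) do, against 3770 within control. FADS1, the delta-5 desaturase, reads 8.55 on all 3 KL1 arrays and on KL-FL replicate 2. How the repeats arose and what they do to the spread within a group was not tested.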
